A study of Gallus gallus with 7 samples.

Results

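The 300 genes described here had the highest length-scaled transcript level in vagal neural crest cells of the chicken embryo at Hamburger and Hamilton stage 10 (HH10). They are 300 of the 24881 genes in the deposited gene table, or 1.21%. They were chosen by 1 measured value, the count in the HH10 library divided by the exonic length, among the 5671 genes with at least 1000 counts. The rule also left out 2 fixed genes and the 200 genes with the most chromatin regions far from a start site, and 2 of these 201 different genes would otherwise have been among the 300. Since the level chose the genes, it is given below as a description without a test.

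All cells came from wild-type chicken embryos. For RNA, the NC2:citrine reporter was electroporated at HH4, and citrine-positive cells from dissected vagal regions were sorted at HH10, giving 1 library. For chromatin, the E2:citrine reporter went in at HH8 and positive cells were sorted at HH18, with 2 libraries each for Avi-tagged sox10, Avi-tagged tfap2B and input. The tagged factors, biotinylated by BirA, were pulled down on streptavidin beads, and no control pull-down from cells lacking a tagged factor was analysed here. Neither the number of embryos per library nor whether replicates were independent collections is stated, so each p-value covers the spread among these libraries and no more. RNA and chromatin come from different stages and different reporters.

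Vagal neural crest cells arise at the level of the posterior hindbrain, leave the neural tube and give rise to enteric neurons and glia, among other derivatives. In most vertebrate cells the most abundant polyadenylated transcripts encode ribosomal proteins, translation factors, cytoskeletal proteins and enzymes of energy metabolism. The files identify genes only by Ensembl ID, and 0 of the 24881 IDs occur in the reference table of gene names. Which of the 300 genes belong to these classes, and whether markers of neural crest or of other cell types are among them, was therefore not analysed here.

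The HH10 library held 28777461 counts, and 13410 genes had at least 1 count. The 300 abundant genes took 5525336 of these counts, or 19.2% (95% exact Clopper-Pearson interval 19.19 to 19.21%, which covers counting error only). Corrected for length (TPM, each gene's share of the summed length-scaled levels), they took 25.5%. Their TPM ran from 498 to 5741 with a median of 717, against a median of 22.7 TPM for all genes with at least 1 count. Of the 300 genes, 66 were above 1000 TPM, and 74 genes held 50% of the counts of the group. The level was 1833 TPM at rank 10, 830 TPM at rank 100 and 628 TPM at rank 200. There is 1 library, so none of these levels has a replicate check.

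**Figure D1:**
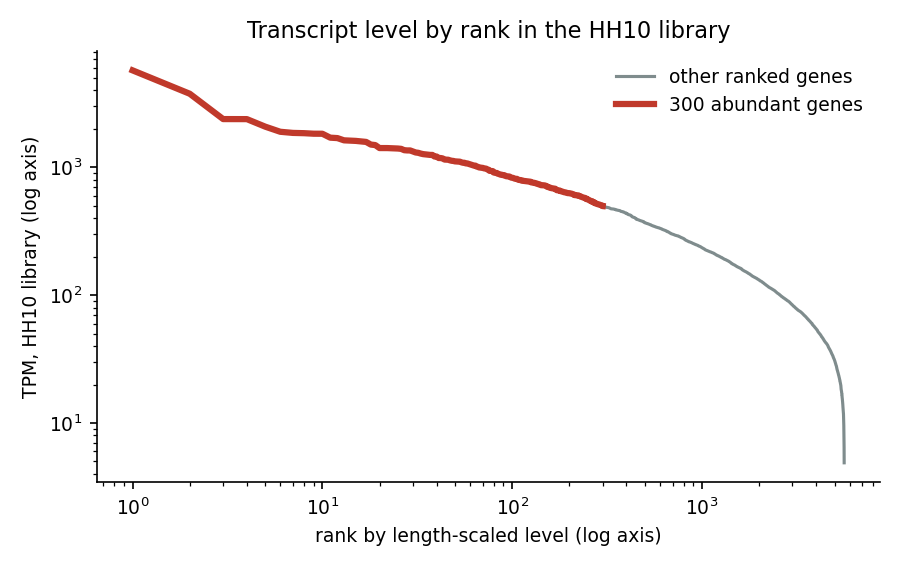
Level of each of the 5616 ranked genes in the HH10 library (TPM, log axis) by rank of the length-scaled level (log axis), with the 300 abundant genes as a thick line. The curve falls steeply over the first 3 genes, from 5741 TPM at rank 1, and then declines smoothly through 498 TPM at rank 300, with no step at the limit of the group.

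The most abundant transcript was that of ENSGALG00000009621, a 6-exon gene on the minus strand of chromosome 14 (galGal5, 4191291 to 4195531). It had 155348 counts and 5741 TPM (95% exact Poisson interval 5713 to 5770), 1.52 times the level of the next gene. That gene, ENSGALG00000014442 (chromosome 1, 76950864 to 76956805, plus strand, 14 exons), had 87828 counts and 3768 TPM. These 2 genes stood apart from the rest: the next, ENSGALG00000006512 on chromosome 24 and ENSGALG00000010243 on chromosome 8, had 2387 and 2386 TPM, intervals that overlap. ENSGALG00000002197 on chromosome 13 followed with 2082 TPM.

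Ranks 6 to 10 lay close together. ENSGALG00000004848 on chromosome 21 had 1899 TPM, and ENSGALG00000007220 on chromosome 5 had 1861 TPM. ENSGALG00000002286 on chromosome 18 had 1852 TPM, ENSGALG00000005001 on chromosome 12 had 1834 TPM, and ENSGALG00000033212 on chromosome 5 had 1833 TPM. The counting intervals of the last 4 overlap. That of ENSGALG00000004848 (1884 to 1915 TPM) also overlaps that of ENSGALG00000007220 (1837 to 1885 TPM). The order of genes with overlapping intervals is not resolved even within this library. Among ranks 11 to 20, the highest level was 1708 TPM for ENSGALG00000037441, which is also the shortest of the 300 genes with 255 exonic bases and 6357 counts. The others were ENSGALG00000015704 and ENSGALG00000004518 on chromosome Z (1695 and 1416 TPM), ENSGALG00000026383 on chromosome 1 (1628 TPM), and ENSGALG00000041277 on chromosome 15 (1620 TPM). ENSGALG00000008367 on chromosome 5 had 1611 TPM, ENSGALG00000007606 on chromosome 6 had 1595 TPM, and ENSGALG00000010023 on chromosome 3 had 1582 TPM. ENSGALG00000008620 on chromosome 4 had 1508 TPM and ENSGALG00000001992 on chromosome 10 had 1494 TPM. Together the first 20 genes took 3.16% of all counts.

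At the limit of the group the levels were continuous. The last 3 genes inside it, ENSGALG00000043002, ENSGALG00000003053 and ENSGALG00000011504, had 501, 499 and 498 TPM. The first 3 outside, ENSGALG00000008613, ENSGALG00000007315 and ENSGALG00000004648, had 498, 497 and 497 TPM. No gene under 1000 counts had a higher level than the lowest of the 300, so the count minimum itself left out 0 genes. The lowest count in the group was 2904.

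Some transcripts could not enter the group at all. All 37 genes that the table places on the mitochondrial genome (MT) and all 5729 genes on unplaced sequences are listed at 0 counts (0 of 37 and 0 of 5729 with any count). The mitochondrial genome encodes subunits of the respiratory chain, and its transcripts are usually among the most abundant of a cell, so their level cannot be read from this table. The ranking therefore covers the 19115 genes on placed chromosomes.

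The abundant genes were compact, which the choice of genes itself favoured. Their exonic length, which the rule used, had a median of 1416.5 bases (255 to 8555), against 1664.5 for the next 300 genes by level and 2384.5 for all 5316 lower-ranked genes with at least 1000 counts. At a lower level, the minimum of 1000 counts also keeps short genes out of the lower-ranked set. Exon number and intron length did not enter the rule directly, although both go with exonic length. The contrasts below therefore follow in part from the choice of genes, and how far was not tested. The median abundant gene had 6 exons (2 to 46), spanned 5.42 kb and held 3.70 kb of intron. The next 300 genes had a median of 8 exons and 6.10 kb of intron, and all lower-ranked genes 11 exons and 12.7 kb. A total of 157 of the 300 had 3 to 6 exons, and 0 were single-exon genes.

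Small genes inside introns were counted as well. In 33 of the 300 (11%) at least 1 single-exon gene of at most 300 bases lay within the gene without touching its exons, against 6.33% of the next 300 and 4.33% of all lower-ranked genes; the difference was not tested. The 33 hosts held 69 such short genes, with a median length of 87 bases and up to 5 in ENSGALG00000001613 on chromosome 12. All 69 lay on the strand of their host, against 252 of 307 in the lower-ranked genes. Small nucleolar RNAs of vertebrates are commonly encoded in this arrangement, but the files do not give the class of these genes. They had 2030 counts together, at most 242 in any one, and 40 had a count.

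Neighbouring and overlapping genes may limit some levels. Exons of 25 of the 300 genes (8.33%) overlapped exons of another gene on either strand. The share was 5.33% for the next 300 genes and 9.46% for all lower-ranked genes. Whether the counting used strand is unstated. Within the group only ENSGALG00000008094 (chromosome 7, 10239404 to 10248714, minus strand, 831 TPM) and ENSGALG00000009070 (10247822 to 10254145, plus strand, 773 TPM) overlapped each other. If the counting did not use strand, reads from their shared exonic bases could not be told apart. In 77 genes (25.7%) the start site had that of an opposite-strand gene within 1 kb. This was close to the 24.3% of the next 300 genes, against 21.1% of all lower-ranked genes. In 7 cases neighbouring genes were both in the group.

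The 300 genes were spread over 29 chromosomes, and 45.0% lay on chromosomes 11 to 33, the small chromosomes of the bird genome. The share was 39.3% for the next 300 genes and 34.0% for all lower-ranked genes with at least 1000 counts. Chromosomes 1 to 5 held 36.0% of the abundant genes, 40.0% of the next 300 and 44.3% of all lower-ranked ones. On both counts the next 300 genes lay in between. Chromosome Z held 13 abundant genes (4.33% against 4.85%), and chromosome W held 0. As a share of genes with at least 1000 counts, the abundant genes ranged from 3.45% on chromosome 9 (6 of 174) to 15.4% on chromosome 33 (4 of 26) over the 29 chromosomes that held any. The small chromosomes varied among themselves, with 11.2% on chromosome 28 (12 of 107) but 3.85% on chromosome 21 and 3.77% on chromosome 23, near the 3.64% of chromosome 2. These shares were not tested.

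The chromatin table allows these start sites to be examined at HH18 with a readout that did not rank the genes. It lists 25469 regions, 13888 of them on placed chromosomes, almost all with an end minus start of 500 bp. A region was called a promoter region when its centre lay within 1 kb of the transcription start site (TSS), taken as the outer end of the first annotated exon. Of the 300 abundant genes, 235 (78.3%) had a promoter region, and ENSGALG00000040864 and ENSGALG00000001452 on chromosome 26 shared theirs. The share was 77.3% for the next 300 genes, 73.0% for ranks 601 to 1200, 70.8% for ranks 1201 to 2400 and 65.0% for ranks 2401 to 5616. It was 38.4% for placed genes with 1 to 999 counts and 14.4% for placed genes with 0 counts. Unlike the ranked bins, those under 1000 counts keep genes that the rule left out. They also hold the 69 short genes inside introns of the abundant genes, whose start sites lie within a host gene. The part of such genes in the shares was not tested. The share thus fell over the ranked bins as the HH10 level fell, and was lower again in the bins under 1000 counts. The bin of 1 to 999 counts is set by counts and not by length-scaled level, so it can overlap the ranked bins in level. Within the group it was 76, 77 and 82 of 100 genes for ranks 1 to 100, 101 to 200 and 201 to 300, so it did not follow the level there. These shares were not tested. Of the 65 abundant genes without a promoter region, 26 had a region within 5 kb, and the median distance to the nearest region was 7.41 kb.

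**Figure D2:**
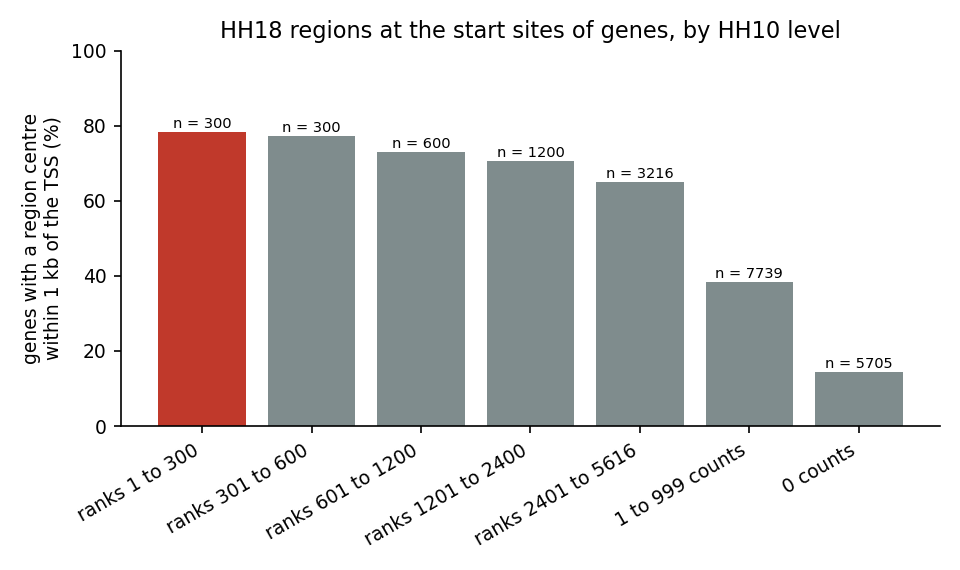
Share of genes with a region centre within 1 kb of the TSS (%), for genes ranked by HH10 level and for placed genes with 1 to 999 or 0 counts, with the number of genes above each bar. The abundant genes have 78.3%, close to the 77.3% of the next 300 genes, and the share declines to 14.4% for genes with 0 counts.

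Promoter regions of abundant genes lay close to the annotated start. The centre was within 250 bases of the TSS in 73.1% of pairs of a gene and a region, against 59.9% of pairs of other genes. The median centre was 18 bases downstream of the TSS for the abundant genes (quartiles -90 and 157 bases) and 22 bases for other genes (quartiles -167 and 203 bases). The other genes here had any transcript level, and genes without a count were among them. A region near the start sites of different genes was counted once for each of them. Regions of abundant genes could thus also enter the other pairs through a neighbouring gene. How far this widened the positions of the other pairs was not tested. The sets were therefore not chosen alike. Genes of similar level were not compared separately, so the closer position cannot be called particular to the abundant genes. The difference was not tested.

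**Figure D3:**
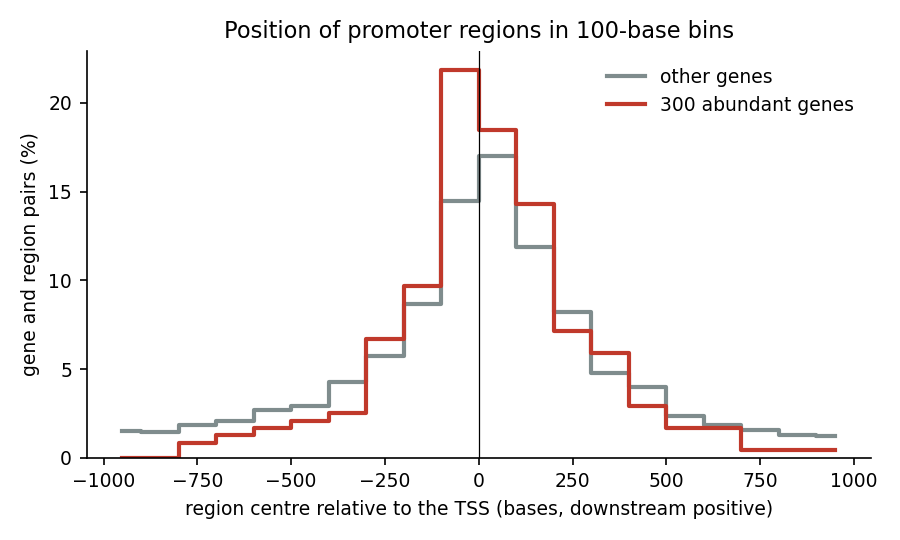
Position of the region centre relative to the TSS (bases, downstream positive, in bins of 100 bases) as a share of pairs of a gene and a region (%). The line of the abundant genes is higher near the TSS, with 73.1% of centres within 250 bases against 59.9% for other genes of any transcript level.

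The deposited values are whole reads times 1 constant per library and are called scaled reads here. Over the 237 promoter regions of the abundant genes, sox10 libraries had medians of 137 and 131 scaled reads, tfap2B libraries 202 and 152, and inputs 150 and 296. Over the 6551 promoter regions of all other genes the medians were 126 and 124 (sox10), 180 and 140 (tfap2B), and 136 and 255 (input). The abundant genes thus had slightly higher medians than all other genes in each of the 6 libraries, inputs included. Promoter regions of the next 300 genes had medians of 135 and 145 (sox10), 213 and 165 (tfap2B), and 149 and 294 (input). Some of these lay above and some below those of the abundant genes, so the higher medians are not particular to the group. Across the 236 promoter regions that belong to a single abundant gene, Spearman's rho of TPM with the mean scaled reads came to 0.0015 with sox10, 0.056 with tfap2B and -0.028 with input. Genes share all libraries in these values, so they are a description.

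**Figure D4:**
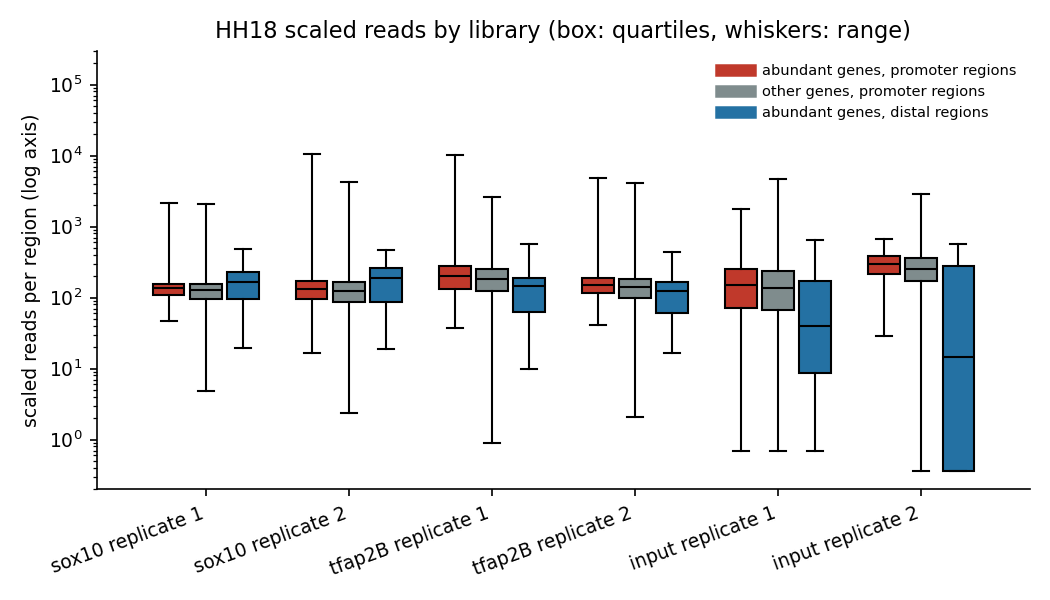
Scaled reads per region (log axis) in each of the 6 HH18 libraries for promoter regions of the abundant genes, promoter regions of other genes, and distal regions of the abundant genes (boxes: quartiles and median, whiskers: lowest and highest). The 2 promoter classes nearly coincide in every library, while distal regions have low input medians of 39.6 and 14.5 scaled reads.

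The comparison of sox10 with input asks whether these promoters carry more sox10 chromatin than input. Most did not stand out: of 237 promoter regions, 4 were higher in sox10 and 43 were lower, by limma on log2(scaled reads + 1) with Benjamini-Hochberg adjusted p under 0.05 over all 25281 tested regions. The background was 18.4% of all regions higher and 22.3% lower, and for promoter regions of all other genes 2.37% higher and 15.9% lower. The shares of the abundant genes, 1.69% and 18.1%, were near those of other promoters. The median log2 difference was -0.78, against -0.68 for other promoters and -0.40 for all regions. The balance of calls depended on the scaling, with 10 higher and 3 lower with total reads, 11 and 11 with DESeq2 size factors, and 7 and 23 with TMM factors. These scalings moved the median of all regions to 0.35, 0.07 and -0.15. Relative to it, the median of the abundant genes' promoters was -0.38 as deposited and -0.37 in each of the other 3 scalings. Each scaling multiplies a library by 1 constant and shifts all regions nearly alike. This gap could therefore hardly change, and its agreement is no check of the result. Promoters of other genes also lay below the median of all regions, at 0.07 against 0.35 with total reads.

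Among called regions whose groups did not overlap, the largest difference upwards was at ENSGALG00000037863 (chromosome 2, region 52289579 to 52290079, centre at -66 bases from the TSS), a gene with 681 TPM. It had 151 and 243 scaled reads in sox10 and 2.08 and 33.02 in input, so all sox10 libraries were above all inputs, as the choice required. The log2 difference was 4.24 ± 1.08 (SE, limma adjusted p = 0.0201). Its sox10 values were 1.22 and 2.00 times the medians of placed regions, and its input values 0.0196 and 0.160 times. ENSGALG00000003153 (chromosome 28, region 3739020 to 3739520, 570 TPM) had 125 and 119 in sox10 against 3.47 and 31.6 in input, 3.35 ± 1.03 on the log2 scale (SE, limma adjusted p = 0.0345). Its sox10 values were 1.01 and 0.981 times the placed medians. Downwards, ENSGALG00000037716 (chromosome 28, region 3901362 to 3901862, 1047 TPM) had 157 and 117 in sox10 against 759 and 658 in input, -2.37 ± 0.49 on the log2 scale (SE, limma adjusted p = 0.0104). ENSGALG00000037325 (chromosome 9, region 23751986 to 23752486, 625 TPM) had 97.3 and 98.3 against 547 and 473, -2.37 ± 0.52 on the log2 scale (SE, limma adjusted p = 0.0127).

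These calls changed when 1 library was left out. Such a fit leaves 1 group with 1 library and has fewer residual degrees of freedom. A lost call there does not show that the omitted library carried the difference. Fewer promoter regions were called, in both directions, without any 1 of the 4 pull-down libraries, and more without either input. The shares of other regions called in these fits are not given. The change therefore cannot be called particular to the abundant genes. Both higher regions lost the call without any 1 of the 4 pull-down libraries (log2 differences 3.90 to 4.58 at chromosome 2 and 3.32 to 3.38 at chromosome 28), and both lower regions without either sox10 library (-2.58 to -2.16 for ENSGALG00000037716, -2.37 and -2.36 for ENSGALG00000037325). Leaving out an input kept the calls of the higher regions but moved their size, to 2.504 without input replicate 1 and 5.97 without input replicate 2 at ENSGALG00000037863, and to 1.92 and 4.78 at ENSGALG00000003153. With only sox10 and input in the fit both higher regions lost the call (limma adjusted p = 0.0581 and 0.0817), and ENSGALG00000003153 also with the replicate block (limma adjusted p = 0.0554).

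For tfap2B the question is the same, and the inputs are shared with the sox10 comparison. Of the 237 promoter regions 5 were higher and 17 lower, against a background of 10.8% higher and 17.4% lower over all regions, and 2.58% and 7.24% for promoters of other genes. The shares of the abundant genes, 2.11% and 7.17%, were again near those of other promoters. The median log2 difference was -0.40, against -0.27 for other promoters and -0.14 for all regions. With total reads the split was 17 higher and 0 lower, with DESeq2 size factors 13 and 2, and with TMM factors 9 and 3, and the median of all regions moved to 0.65, 0.19 and 0.12. Relative to it, the median of the abundant genes' promoters was -0.25 as deposited and with DESeq2 or TMM factors, and -0.24 with total reads. As for sox10, this gap could hardly change with the scaling. Promoters of other genes also lay below the median of all regions, at 0.53 against 0.65 with total reads.

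By the same rule the regions with the largest upward differences were those of ENSGALG00000037863 and ENSGALG00000003153. The former had 223 and 208 scaled reads in tfap2B, a log2 difference from the same inputs of 4.40 ± 1.08 (SE, limma adjusted p = 0.0222). The latter had 228 and 106, 3.70 ± 1.03 on the log2 scale (SE, limma adjusted p = 0.0322). Downwards, ENSGALG00000011514 (chromosome 1, region 46695864 to 46696364, 516 TPM) had 106 and 133 in tfap2B against 505 and 588 in input, -2.19 ± 0.43 on the log2 scale (SE, limma adjusted p = 0.0110). ENSGALG00000005507 (chromosome 4, region 2296736 to 2297236, 573 TPM) had 158 and 112 against 789 and 430, -2.12 ± 0.49 on the log2 scale (SE, limma adjusted p = 0.0187). In all 4 regions the libraries of tfap2B and input did not overlap, which the rule required.

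These counts also changed when 1 library was left out, with the same limit as for sox10. Here too fewer promoter regions were called, in both directions, without any 1 of the 4 pull-down libraries, and more without either input. The shares of other regions called in these fits are again not given. All 4 named regions lost the call without either tfap2B library (log2 differences 3.15 to 4.45 at the higher and -2.36 to -1.87 at the lower regions), and the 2 higher regions also without sox10 replicate 2 (4.40 and 3.70, limma adjusted p = 0.0528 and 0.0801) or sox10 replicate 1 (limma adjusted p = 0.0503 and 0.0809). Without input replicate 1 the higher regions were at 2.67 and 2.27, and without input replicate 2 at 6.13 and 5.13, still called. With only tfap2B and input in the fit both lost the call (limma adjusted p = 0.0503 and 0.0825), and ENSGALG00000003153 also with the replicate block (limma adjusted p = 0.0543). Both lower regions lost it with total reads (-1.39 and -1.31, limma adjusted p = 0.0547 and 0.0720). ENSGALG00000005507 lost it also with DESeq2 size factors (-1.78, limma adjusted p = 0.0562) and in edgeR (adjusted p = 0.0635).

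Among the 237 promoter regions of the abundant genes, that of the gene at rank 1 had by far the most pull-down reads. The region at chromosome 14, 4195087 to 4195587, centred 194 bases downstream of the TSS of ENSGALG00000009621, held 2132 and 10550 scaled reads of sox10; the tfap2B libraries had 10175 and 4894, and the inputs 1740 and 615. That is 17.2 and 86.7 times the median placed region in sox10, 72.0 and 40.5 times in tfap2B, and 16.4 and 2.98 times in input. All 6 libraries were thus high here, and each pull-down was above each input. The source of these reads was not tested, and a link with the transcript level cannot be read from 1 region. The log2 difference was 2.20 ± 0.86 for sox10 (SE, limma adjusted p = 0.0727) and 2.77 ± 0.86 for tfap2B (SE, limma adjusted p = 0.0465). The first did not pass the test, and its size moved when single libraries were left out. It was 1.04 without sox10 replicate 2 and 1.45 without input replicate 2 (limma adjusted p = 0.465 and 0.196), 3.35 without sox10 replicate 1 (limma adjusted p = 0.0835), and 2.95 without input replicate 1, where it passed (limma adjusted p = 0.00927). It also passed with total reads (limma adjusted p = 0.0219), with a pseudocount of 10 (limma adjusted p = 0.0414) and in the DESeq2 Wald test (adjusted p = 0.0132). The second was lost in 8 of 17 alternatives. These were the omission of input replicate 2 (2.02), sox10 replicate 1 (2.77), tfap2B replicate 1 (2.24) or tfap2B replicate 2 (3.30), the replicate block (limma adjusted p = 0.0732), DESeq2 size factors (limma adjusted p = 0.132), TMM factors (limma adjusted p = 0.127) and edgeR (adjusted p = 0.262). The neighbouring region at 4186662, 8619 bases downstream, was far lower, with sox10 at 145 and 147, tfap2B at 154 and 217 and input at 198 and 413. The region at 4209488, at -14207 bases, had low input instead (8.34 and 14.5), with sox10 at 488 and 409 and tfap2B at 372 and 254.

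The remaining promoter regions had far fewer reads. The second highest mean in sox10 was 377 scaled reads, at ENSGALG00000012229 (chromosome 5, region 57721573 to 57722073), where sox10 had 255 and 498, tfap2B 516 and 327, and input 85.5 and 258. The third in sox10 was ENSGALG00000022950 on chromosome 4 (210 and 353 in sox10, 174 and 520 in input). The second highest mean in tfap2B was 496, at ENSGALG00000008367 on chromosome 5, the gene at rank 15 by level, with 650 and 342 in tfap2B and 507 and 619 in input. Only the first of these 3 regions had higher mean pull-down than input reads for both factors.

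The abundant genes were the nearest gene, within 100 kb, for 47 regions over 1 kb from every TSS, in 41 genes and at most 2 per gene. The rule had removed genes with many such regions, so this number is no finding. Against input, sox10 was higher at 21 of the 47 (44.7%) and lower at 4, against 24.3% and 16.8% of the distal regions of other genes; tfap2B was higher at 17 (36.2%) and lower at 1, against 16.8% and 12.8%. The medians of their log2 differences were 1.98 for sox10 and 1.67 for tfap2B, against 0.014 and 0.15 for other genes. The distal regions of other genes include those of genes that the rule removed and of genes at any HH10 level. The sets were therefore not chosen alike, and whether these shares differ was not tested. Low input moved with this result: median scaled reads were 168 and 187 (sox10), 143 and 123 (tfap2B) and 39.6 and 14.5 (input), against 120 and 119, 105 and 99.96, and 74.3 and 145 for distal regions of other genes. The part of low input in the result was not tested. In 6 of the 47 both inputs held 1 read, which in this table can stand for 0 or 1, against 0 of the 237 promoter regions.

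**Figure D5:**
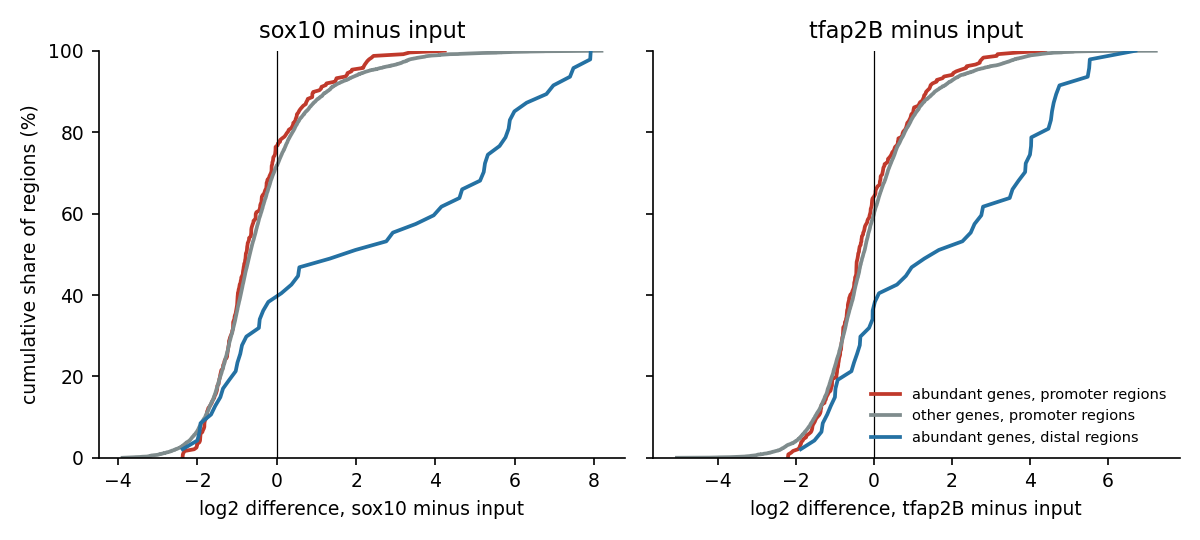
Cumulative share of regions (%) by log2 difference from input for sox10 (left) and tfap2B (right), for promoter regions of the abundant genes, promoter regions of other genes and distal regions of the abundant genes. The 2 promoter curves run close together with medians of -0.78 and -0.68 for sox10, and the distal curve lies to the right with a median of 1.98.

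The distal regions with the largest differences for sox10, named after their values were seen, lay near ENSGALG00000013569 and ENSGALG00000003193. The region at chromosome 2, 89957154, 49274 bases downstream of the TSS of ENSGALG00000013569, had sox10 values of 285 and 470, tfap2B values of 34.9 and 35.4, and input values of 0.695 and 0.363, the worth of 1 read. The region at chromosome 10, 3662868, at -14068 bases from the TSS of ENSGALG00000003193, had sox10 values of 309 and 426, tfap2B values of 52.8 and 85.4, and again 1 read in both inputs. In both regions every sox10 value lay above every tfap2B value. In the 21 regions higher in sox10 the medians were 230 and 269 (sox10), 61.7 and 102 (tfap2B), and 9.03 and 0.363 (input). These regions were called on the same sox10 and input values, so the choice itself favoured high sox10 and low input. It also favoured sox10 over tfap2B. Over all 47 distal regions the median log2 difference, sox10 minus tfap2B, was 0.048. The count of 21 was 21 with each of the 3 other scalings, 14 with edgeR, 9 without sox10 replicate 1 and 6 without sox10 replicate 2. The count of 17 for tfap2B was 15 to 19 with other scalings, 11 with edgeR, 9 with only tfap2B and input in the fit, 10 and 9 without sox10 replicates 1 and 2, and 0 without either tfap2B library. The 4 regions lower in sox10 were 0 with total reads or edgeR and 1 with DESeq2 size factors or the DESeq2 Wald test. They were 2 with TMM factors and 7 with a pseudocount of 10. Of distal regions of other genes, edgeR called 7.69% lower and DESeq2 9.16%. Fewer were lower without any 1 of the 4 pull-down libraries, and more without either input. For the alternatives without a share, that of other regions is not given. The 1 region lower in tfap2B became 0 to 3 over the same alternatives.

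The last comparison sets sox10 and tfap2B against each other. Fitted on all 6 libraries, limma called 0 of the 237 promoter regions and 0 of the 47 distal regions in either direction, against a background of 0% of all regions. At an unadjusted p under 0.05 there were 4 of 237 promoter and 5 of 47 distal regions, against 3.04% of other promoters, 8.68% of other distal regions and 4.19% of all regions. EdgeR also called 0. The DESeq2 Wald test called 0 promoter regions and 2 distal regions, both higher in sox10, against 1.77% of other distal regions and 0.57% of all regions. With the inputs left out of the fit, 0 promoter regions passed, with a smallest adjusted p of 0.0657, and 7 of the 47 distal regions were higher in sox10 and 0 lower, against a background of 2.47% and 0.103% of all regions, and 7.95% and 0.109% of distal regions of other genes. The median log2 difference, sox10 minus tfap2B, was -0.39 over the promoter regions of the abundant genes and -0.36 over those of other genes.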

How the data were processed

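RNA values were raw counts for Ensembl genes as deposited by the authors, per the file headers. The HH10 column is present 2 times, without any difference, and entered once; 21 further columns belong to other samples and stayed out. The deposited chromatin table holds a signal, whole reads times 1 constant per library (100% whole within 0.01 read), on galGal5. Per the submitters' processing notes the authors used Bowtie, DiffBind, DESeq2, featureCounts, Subread 1.4.5 and STAR 2.4.2a; their roles, the region calling and the origin of the constants are unstated. Region starts may count from 0 or 1. Reads in regions ranged from 1366132 to 13921317 per library.

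TPM was computed from counts and the Length column. Regions were tested by limma 3.58.1 (trend = TRUE) on log2(scaled reads + 1), all 6 libraries in 1 fit (3 residual degrees of freedom), after filterByExpr of edgeR 4.0.16, which removed 188 regions. Alternatives used edgeR and DESeq2 1.42.0 on recovered reads, other scalings, filters and pseudocounts, a replicate block and left-out libraries. The limma script was run on simulated reads with 1 spread setting for every region and library. The real data need not follow that setting, so the run is no check of the calls reported here. Named genes are the 20 highest, those at the limit, per comparison the 2 called promoter regions with the largest difference each way and no overlap between groups, and the 3 with the most reads per factor. Members, lists and tests were chosen with earlier results of these data known. Lists of marker and pathway genes could not be matched and were not used, and no sequence is shown.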

Additional observations from a re-analysis of the deposited data

How the results depend on the processing

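The choice of ranking value changed the group more than the count minimum did. It was the same 300 genes with a minimum of 100 counts or with distances from region edges (19.2% of counts), and shared 284 genes with a minimum of 5000 counts (19.7%). Ranking by counts without length kept 168 genes (23.1%), the top 100 took 9.05% and the top 500 took 26.8%. The calls at promoter regions were less stable, and the cause was not tested. Where the number of calls moved by over 1.5 times from the 4 higher and 43 lower for sox10 and the 5 higher and 17 lower for tfap2B, the values were as follows. Total reads gave 10 and 3 for sox10 and 17 and 0 for tfap2B, DESeq2 size factors 11 and 11 and 13 and 2, and TMM factors 7 and 23 and 9 and 3. A pseudocount of 10 gave 7 and 8 higher, and a window of 2.5 kb 7 and 8 higher. With only the 2 groups compared there were 0 higher for sox10 and 1 higher and 5 lower for tfap2B. In that fit 1.16% of other promoters and 12.0% of all regions were higher for sox10. For tfap2B 0.78% of other promoters were higher and 3.76% lower, and 4.87% and 11.3% of all regions. EdgeR called 8 and 1 lower, and the DESeq2 Wald test 10 and 10 and 15 and 3. At adjusted p under 0.01 every count was 0. Leaving out 1 library gave 0 to 46 higher and 0 to 111 lower for sox10, 0 to 59 higher and 0 to 55 lower for tfap2B, and 0 to 0 for sox10 against tfap2B.

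Whether libraries with the same replicate number belong together is unstated. Over regions, deviations of same-numbered libraries correlated at -0.03 for sox10 and input, -0.27 for tfap2B and input and 0.05 between the factors. Each value rests on 1 difference between replicates per group, so it cannot decide this. With the replicate block there were 1 higher and 30 lower for sox10, 3 higher and 7 lower for tfap2B, and 0 between the factors; a crossed block, added after seeing the data, gave 7 and 16 for tfap2B. Leaving out the most abundant gene, also added later, gave 4 higher for tfap2B and moved no other count. Filters on low reads moved no count by over 1.5 times. The called promoter regions named for the largest differences and the region of ENSGALG00000009621 did not reverse under any alternative. The other named regions were not followed through the alternatives. The group has 1 RNA library, and input reads near 1 limit the differences of distal regions.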
